A study of Mus musculus with 4 samples.

Results

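The genes described here encode the histone proteins of mouse chromatin, together with Slbp, whose product binds histone messenger RNA. They were measured by CAGE, which counts capped RNA 5′ ends, in colon tumours. Members were taken by name from the gene count table, as every symbol of the H1f, H2ac, H2bc, H3c, H4c, H2az, H2ax, H3f3, H2bu and Hist1 to Hist4 series plus H4f16, Macroh2a1, Macroh2a2 and Slbp. This gave 76 of the 14979 genes in the table. They comprise 62 replication-dependent histone genes, 10 replacement histone genes, 3 pseudogenes and Slbp. Classes were assigned by symbol, and the 3 pseudogenes are the members whose symbol ends in -ps or -ps1. All 76 passed the filter on low counts, as did 14331 genes in all. The name rule leaves out H2aj and H2aw, which the table also holds and which are not described here.

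The tumours came from mice of the AOM/DSS model, in which the carcinogen azoxymethane is combined with dextran sulphate sodium, an agent that inflames the colon. IgG libraries came from mice given a control IgG antibody, and MAdCAM1 libraries from mice given an antibody against MAdCAM-1, an adhesion molecule of the vessel wall that immune cells use to enter the gut. There were 2 mice in each group and every mouse gave 1 library (IgG 1, IgG 2, MAdCAM1 1 and MAdCAM1 2), so that all 4 share the tumour model and differ by antibody and mouse. Strain, age, antibody dose, time of sampling and the number of tumours per library are not given in the sources used here. With 2 against 2 libraries, an exact two-sided permutation test of a single value cannot give a p below 0.333. In bulk tissue, fewer cells of a type and less RNA per cell cannot be told apart.

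Replication-dependent histones are made mainly in S phase, when new DNA has to be packaged, from many small gene copies that lie in clusters. Their messenger RNA ends in a conserved stem-loop bound by SLBP in place of a poly(A) tail, so oligo(dT) methods largely miss it, whereas the cDNA here was primed with random primers. Replacement histones such as H2A.Z, H3.3 and macroH2A are made through the whole cell cycle, mostly from genes with introns and polyadenylated messages, and enter chromatin outside replication.

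The stem-loop was found in most replication-dependent genes, although the classes were assigned by symbol. It is shown first for the most abundant member of each replication-dependent family and for the only replacement member that held it. The lines give reference sequence from the GRCm39 genome, 5′ to 3′ on the gene's strand, with the 16-base stem-loop in capitals and 5 flanking bases on each side. H4c4 lies at chr13:23765928-23765953, plus strand. H3c6 lies at chr13:23746072-23746097, minus strand. H2bc18 lies at chr3:96177482-96177507, plus strand. H2ac15 lies at chr13:21937547-21937572, minus strand. H1f4 lies at chr13:23805760-23805785, minus strand. H2ax lies at chr9:44246532-44246557, plus strand.
H4c4: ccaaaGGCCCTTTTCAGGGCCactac
H3c6: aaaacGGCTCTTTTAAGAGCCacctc
H2bc18: caaaaGGCTCTTTTCAGAGCCacttt
H2ac15: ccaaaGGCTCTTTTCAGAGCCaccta
H1f4: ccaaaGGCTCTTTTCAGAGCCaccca
H2ax: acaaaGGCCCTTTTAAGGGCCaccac

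The histone stem-loop consensus was found within 150 bases after the stop codon in 57 of 62 replication-dependent genes (91.9%) and in 1 of 9 replacement genes with an annotated coding sequence (11.1%). Over all 21656 protein-coding genes it was found in 68 (0.314%), a count that includes these histone genes. The form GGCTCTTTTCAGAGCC was held by 35 of the 57, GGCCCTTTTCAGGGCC by 8 and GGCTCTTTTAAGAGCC by 7. The replication-dependent genes without a match were H2ac22, H2bc21, H2bc22, H2bc23 and H2bc24, which says only that these letters were not in that window. Of the 62 genes, 57 consist of 1 exon in their main GENCODE transcript. H2ax, whose product is phosphorylated at DNA breaks, is also a single-exon gene.

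Start regions, from 250 bases before to 50 after the annotated start, were searched on both strands for TATAAA (the TATA box), CCAAT (bound by NF-Y) and ATTTGCAT (the octamer bound by POU2F1), each counted whether or not it overlapped another. TATAAA was in 31 of 62 replication-dependent genes (50%), in 1 of 10 replacement genes (10%) and in 13.7% of 21770 protein-coding genes. CCAAT was in 49 of 62 (79%), against 2 of 10 (20%) and 39.8%. The octamer was in 10 of 62 (16.1%), against 0 of 10 and 1.68%. The families differed in these letters. CCAAT was in all 16 H2A genes and all 4 H1 genes but in 3 of 13 H4 genes, and the octamer was in 5 of 16 H2A genes and 5 of 17 H2B genes and in none of the H1, H3 or H4 genes. The counts depend on the annotated starts. The H2B and H3 genes without CCAAT were H2bc3, H2bc4 and H3c7, whose annotated starts lie 1445, 584 and 433 bases from the start codon. Whether the windows lie at the starts used in these tumours was not tested.

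Many H2A and H2B genes are arranged head to head and share the sequence between their starts, and 10 such pairs with 278 to 334 bases between start codons were found. The stretch between the annotated starts is shown for 2 pairs whose partners were read at similar and at very different levels, with the 3 motifs in capitals wherever they occur on either strand. H2ac8-H2bc8 is chr13:23755395-23755569 and H2ac20-H2bc21 is chr3:96128197-96128434, both from GRCm39 on the plus strand, with the H2A gene to the left on the minus strand.
H2ac8-H2bc8: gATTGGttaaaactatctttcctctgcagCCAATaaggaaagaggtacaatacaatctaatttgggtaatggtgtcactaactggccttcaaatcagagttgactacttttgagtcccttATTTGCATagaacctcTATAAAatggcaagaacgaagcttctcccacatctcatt
H2ac20-H2bc21: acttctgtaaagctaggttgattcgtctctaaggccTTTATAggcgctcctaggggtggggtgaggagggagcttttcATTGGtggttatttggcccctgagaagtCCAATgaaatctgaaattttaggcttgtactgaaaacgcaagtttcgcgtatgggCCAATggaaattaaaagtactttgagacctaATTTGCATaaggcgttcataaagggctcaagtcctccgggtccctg

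Between the start codons, which includes the 5′ untranslated parts, each pair held 2 to 5 CCAAT motifs, 6 pairs held TATAAA and 3 held the octamer. H2ac8 was at a mean level of 478 CPM and H2bc8 at 724 CPM, a ratio of 1.51. H2ac20 was at 482 CPM and its partner H2bc21 at 6.08 CPM, a ratio of 79.4. H2bc21 encodes a variant H2B known from olfactory neurons. Over the 10 pairs the median ratio between partners was 2.24, from 1.002 for H2ac11 and H2bc11 (820 and 818 CPM) to that of H2ac20 and H2bc21. Partners lay closer in their difference between the groups than in level, with a median gap between their log2 fold changes of 0.11 and a largest gap of 0.61. The log2 fold changes of the whole class of 62 genes were also close, with an SD of 0.20. Genes that are not partners were not compared in this way, so the closeness is not shown to be particular to pairs.

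The gene counts of a library summed to between 14850923 and 16891234 tags, so that 1 tag equals 0.0569 to 0.0700 CPM. Percentages of tags below are shares of this sum, in which genes with identical counts each enter. Levels are given in CPM, tags relative to library size, scaled by TMM (trimmed mean of M values, which centres the bulk of genes). CAGE yields 1 tag per captured 5′ end, so a level does not scale with gene length. The replication-dependent class took 491657 tags in IgG 1 (2.91%, 95% Wilson interval 2.90 to 2.92), 512220 in IgG 2 (3.26%, 3.25 to 3.27), 657772 in MAdCAM1 1 (4.43%, 4.42 to 4.44) and 524733 in MAdCAM1 2 (3.30%, 3.29 to 3.31). These intervals cover counting error only, and the spread between mice was far wider. The replacement class took 0.529%, 0.556%, 0.532% and 0.449% of tags in the same order. All 4 random-primed, cap-selected libraries thus held several replication-dependent tags for each replacement tag.

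H4 genes, whose copies encode nearly the same protein, gave the largest part of the class. Of all replication-dependent tags, 32.0%, 34.8%, 31.7% and 33.9% came from H4, in the order IgG 1, IgG 2, MAdCAM1 1, MAdCAM1 2. H2A gave 18.5% to 21.5%, H2B 21.3% to 22.1%, H3 18.4% to 20.2% and the linker histone H1 5.21% to 6.62%. H4c4 was the most abundant member and stood 9th, 7th, 4th and 7th among all genes of the table. The 5 most abundant members held 29.3% of the class level and the 10 most abundant 44.7%. Mean levels ran from 2.10 to 3385 CPM with a median of 480 CPM, 45 members were above 100 CPM, 6 lay between 10 and 100 CPM and 11 were under 10 CPM.

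Replication-dependent genes were on the whole higher in the tumours of mice given the MAdCAM-1 antibody than in those given IgG, while replacement genes were not. Their summed level was 27982 CPM in IgG 1, 31680 in IgG 2, 46059 in MAdCAM1 1 and 33977 in MAdCAM1 2. The groups did not overlap, but the MAdCAM1 libraries differed from each other more than MAdCAM1 2 differed from IgG 2. The means were 29831 ± 2615 CPM (SD, n = 2) and 40018 ± 8543 CPM (SD, n = 2), a ratio of 1.34 or a log2 difference of 0.42. No test was made of this sum.

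**Figure D1:**
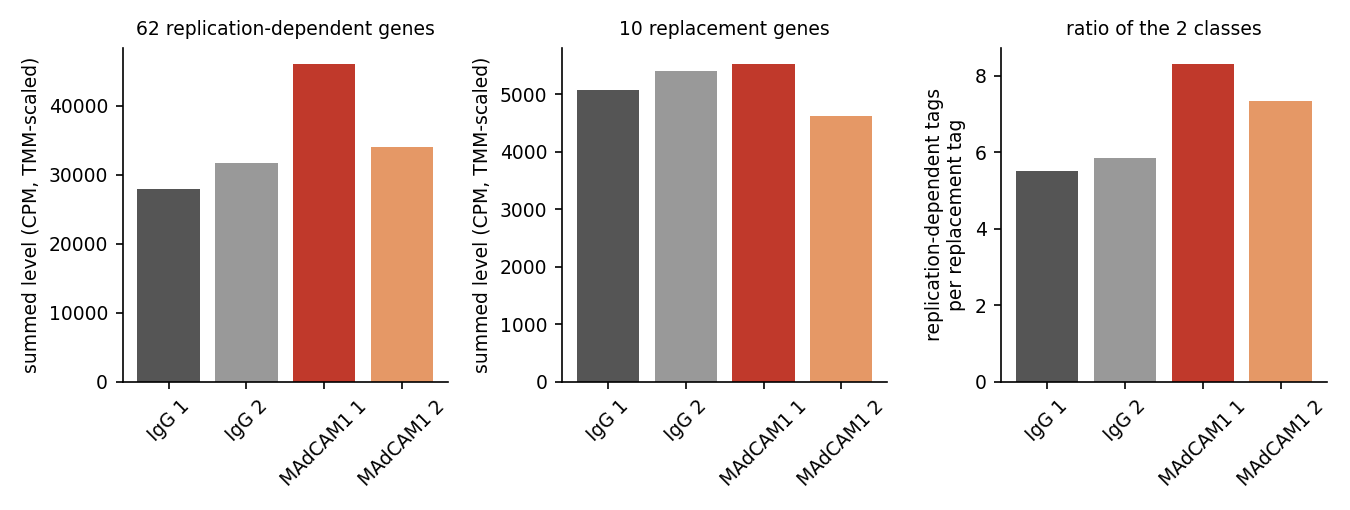
Bars give, for each library, the summed level (TMM-scaled CPM) of the 62 replication-dependent genes and of the 10 replacement genes, and the ratio of their tags, on axes that start at 0. The replication-dependent sum was highest in MAdCAM1 1 with MAdCAM1 2 close above IgG 2, the replacement sum spanned 4618 to 5535 CPM with overlapping groups, and the ratio was above 7 only in the MAdCAM1 libraries.

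Gene by gene, 43 of 62 replication-dependent genes had both MAdCAM1 values above both IgG values, a pattern that 19.7% of all 14331 tested genes showed. None of the 62 was lower in both (18.7% of all genes), and 19 overlapped. The median log2 fold change was 0.44 (range −0.04 to 1.36), against −0.0012 over all genes, and 61 of 62 were above 0, against 49.8% of all genes. By edgeR's quasi-likelihood test with Benjamini-Hochberg adjustment no histone gene passed an adjusted p of 0.05, nor did any of the 14331 genes (0%). At an unadjusted p under 0.05, 3 of 62 were higher (5.09% of all genes were) and 0 lower (1.82%), so this count was close to the background. No histone gene was called by edgeR's exact test, which called 152 genes higher (1.06%) and 9 lower (0.0628%), by DESeq2, which called 221 higher (1.54%) and 21 lower (0.147%), or by limma-voom, which called none (0%).

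MAdCAM1 1 carried most of the difference. MAdCAM1 1 was above both IgG libraries for 60 of 62 genes (33.9% of all genes) and was the highest library for 57 (24.4%), whereas MAdCAM1 2 was above both for 43 (34.3%). The median log2 over the IgG mean was 0.65 for MAdCAM1 1 and 0.16 for MAdCAM1 2. Without MAdCAM1 1 the median log2 fold change was 0.16 and that of the summed level 0.19. Scaling by library size alone, which moved the median of all genes to −0.099, left 27 genes higher in both MAdCAM1 libraries (13.6% of all genes) and 0 lower (28.6%), with a median of 0.34.

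**Figure D2:**
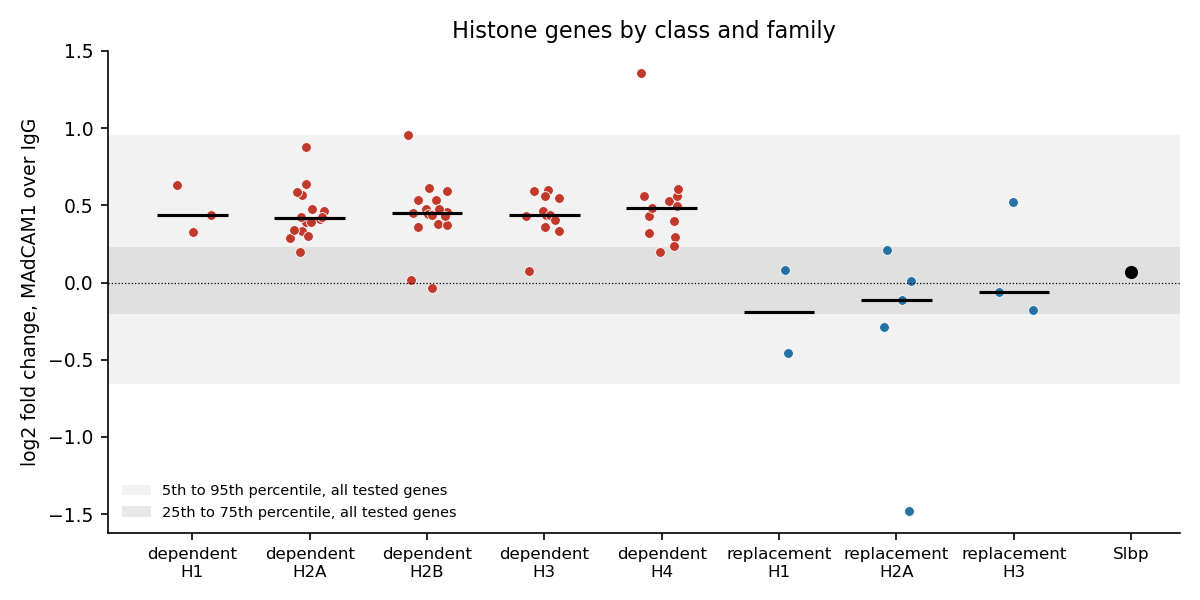
Each point is the log2 fold change (MAdCAM1 over IgG) of 1 gene, by class and family with Slbp at the right, black lines are family medians, and grey bands hold the 5th to 95th and 25th to 75th percentiles of all 14331 tested genes. All replication-dependent genes but H2bc21 lay above 0, and the replacement genes lay on both sides of it.

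Among H4 genes, H4c4 (chr13:23765581-23766718, plus strand, GRCm39 with GENCODE M39 as for all genes here) was at 2835, 3247, 4141 and 3318 CPM (IgG 1, IgG 2, MAdCAM1 1, MAdCAM1 2), with a log2 fold change of 0.29 ± 0.19 (SE; adjusted p = 0.818 by edgeR's quasi-likelihood test). MAdCAM1 2 lay barely above IgG 2. H4c18 (chr13:22015937-22016366, minus strand) was at 1854, 2323, 3218 and 2799 CPM, with a log2 fold change of 0.53 ± 0.19 (SE; adjusted p = 0.718 by the same edgeR test), and here both MAdCAM1 libraries stood clear of both IgG libraries. H4c3 was at 1196, 1531, 1956 and 1636 CPM, with a log2 fold change of 0.40. The smallest unadjusted p values of the class all fell to H4 genes, namely H4c17, H4c2 and H4c18. H4c17 (chr13:21995916-21996317, plus strand) had 24, 24, 52 and 57 tags, or 1.37, 1.48, 3.64 and 3.69 CPM, with a log2 fold change of 1.36 ± 0.37 (SE; edgeR quasi-likelihood unadjusted p = 0.0179, adjusted p = 0.691). Its level was among the lowest of the class. H4c2 was at 120, 144, 193 and 196 CPM, with a log2 fold change of 0.56 ± 0.16 (SE; edgeR quasi-likelihood unadjusted p = 0.0225, adjusted p = 0.691). In H4c2 and H4c17, unlike most of the class, MAdCAM1 1 was not the highest library. In all, 7 of 13 H4 genes were higher in both MAdCAM1 libraries (19.7% of all genes) and 6 overlapped, with a median of 0.48.

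The H3 genes encode the replication-coupled H3 proteins. H3c6 was at 946, 1121, 1564 and 1237 CPM, with a log2 fold change of 0.44. H3c2 was at 677, 816, 1209 and 853 CPM, with a log2 fold change of 0.47. H3c11 was at 674, 797, 1186 and 798 CPM, with a log2 fold change of 0.43. In H3c2 and H3c11 most of the difference lay in MAdCAM1 1, and in H3c11 IgG 2 and MAdCAM1 2 nearly met. Without MAdCAM1 1 the log2 fold change was 0.19 for H3c2 and 0.12 for H3c11. Of 12 H3 genes 8 were higher in both MAdCAM1 libraries (19.7% of all genes), with a median of 0.44.

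H2A and H2B form the dimers that flank the H3-H4 tetramer in the nucleosome. H2ac15 was at 853, 832, 1175 and 946 CPM, with a log2 fold change of 0.33. H2ac4 was at 685, 612, 1306 and 712 CPM, with a log2 fold change of 0.64 ± 0.34 (SE). H2ac11 was at 669, 711, 1092 and 807 CPM, with a log2 fold change of 0.46. H2ac4 showed the class pattern in its sharpest form among the abundant H2A genes, with MAdCAM1 1 far above 3 libraries of similar level. Of 16 H2A genes 13 were higher in both MAdCAM1 libraries (19.7% of all genes), with a median of 0.42.

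H2bc18 was at 1184, 1085, 1580 and 1371 CPM, with a log2 fold change of 0.38. H2bc4 was at 937, 1197, 1558 and 1176 CPM, so that IgG 2 exceeded MAdCAM1 2 and the groups overlapped. H2bc3 was at 738, 811, 1265 and 888 CPM, with a log2 fold change of 0.47. Of 17 H2B genes 11 were higher in both MAdCAM1 libraries (19.7% of all genes), with a median of 0.45. H2B also held genes that departed from the class pattern. H2bc21, placed in the class by its symbol and without a stem-loop match, was at 4.21, 8.10, 7.84 and 4.14 CPM. Its log2 fold change was −0.04, the only negative value among the 62. H2bu2, the only gene of the class on chromosome 11, is named H2bc27 in GENCODE M39. The nearby H2bu1-ps is named H2bc26 there, with an annotated coding sequence and a stem-loop match 29 bases after the stop codon. It was counted as a pseudogene by its symbol and so left out of the class. H2bu2 was at 87.6, 164, 184 and 70.8 CPM, with a log2 fold change of 0.02. In H2bc21 and H2bu2, IgG 2 and MAdCAM1 1 were the high libraries. The H3 gene H3c15 was at 3.02, 2.60, 3.01 and 2.91 CPM, with a log2 fold change of 0.08 and overlapping groups. H2bc21 and H3c15 were the only genes of the class whose highest library was an IgG one. H2bu2 and H3c15 were picked out after their values were seen.

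H1 proteins bind the linker DNA between nucleosomes. H1f4 was at 1013, 888, 1235 and 1147 CPM, with a log2 fold change of 0.33. H1f2 was at 646, 603, 934 and 756 CPM, with a log2 fold change of 0.44. H1f5 was at 126, 105, 227 and 130 CPM, with a log2 fold change of 0.63 ± 0.32 (SE). All 4 H1 genes were higher in both MAdCAM1 libraries (19.7% of all genes), with a median of 0.44. H1 was the family in which the MAdCAM1 libraries lay closest, their summed levels differing by 0.24 on the log2 scale against 0.34 to 0.54 in the core families.

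**Figure D3:**
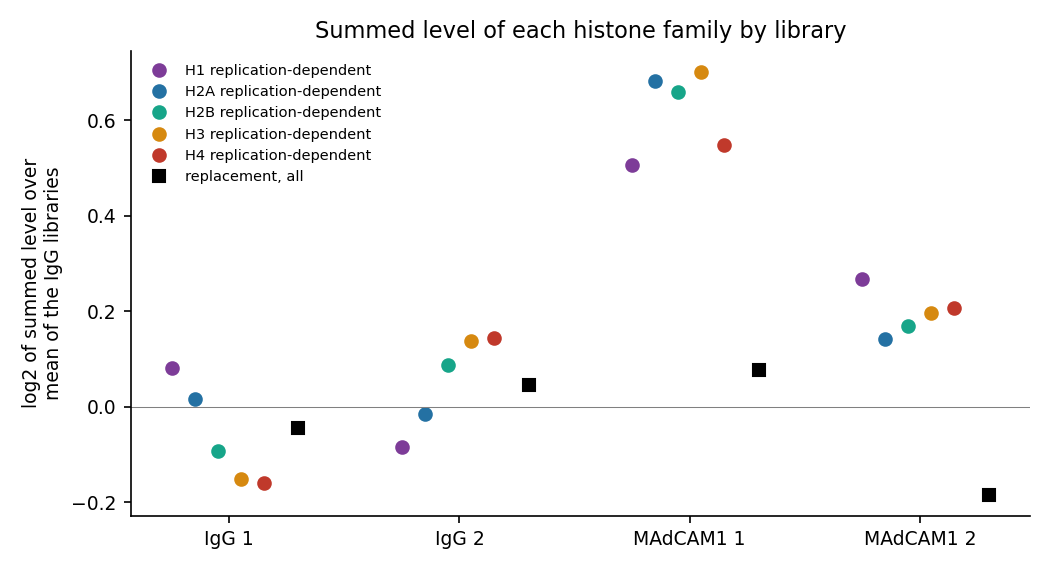
log2 of each family's summed level in each library over the mean of the IgG libraries, as 1 point per family and library, with the whole replacement class as squares. MAdCAM1 1 lay between 0.51 and 0.70 for the 5 replication-dependent families and MAdCAM1 2 between 0.14 and 0.27, while the replacement class was at 0.077 and −0.18.

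The families also differed between the IgG mice, and not all in one direction. From IgG 1 to IgG 2 the summed level differed by 0.30 on the log2 scale for H4, with all 13 genes higher in IgG 2. It differed by 0.29 for H3 (9 of 12 higher) and by 0.18 for H2B (15 of 17 higher). H2A differed by −0.03 (7 of 16 higher) and H1 by −0.17 (0 of 4 higher). In H4 and H3 the gap between the IgG mice was thus larger than that between MAdCAM1 2 and the IgG mean, which was 0.21 and 0.20.

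The 2 blocks of chromosome 13 and the cluster of chromosome 3 showed similar values. The chromosome 13 block of 23 genes that holds H4c18 and H2ac15 had a median of 0.46 for the log2 fold change. Of its genes, 16 were higher in both MAdCAM1 libraries, as were 19.7% of all genes. The block of 27 genes that holds H4c4 and H3c6 had a median of 0.45, with 19 such genes. The 10 genes of chromosome 3 had a median of 0.37, with 8 such genes. H4f16 on chromosome 6 was at 0.24, with overlapping groups. The 57 genes with a stem-loop match and the 5 without had medians of 0.44 and 0.43.

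**Figure D4:**
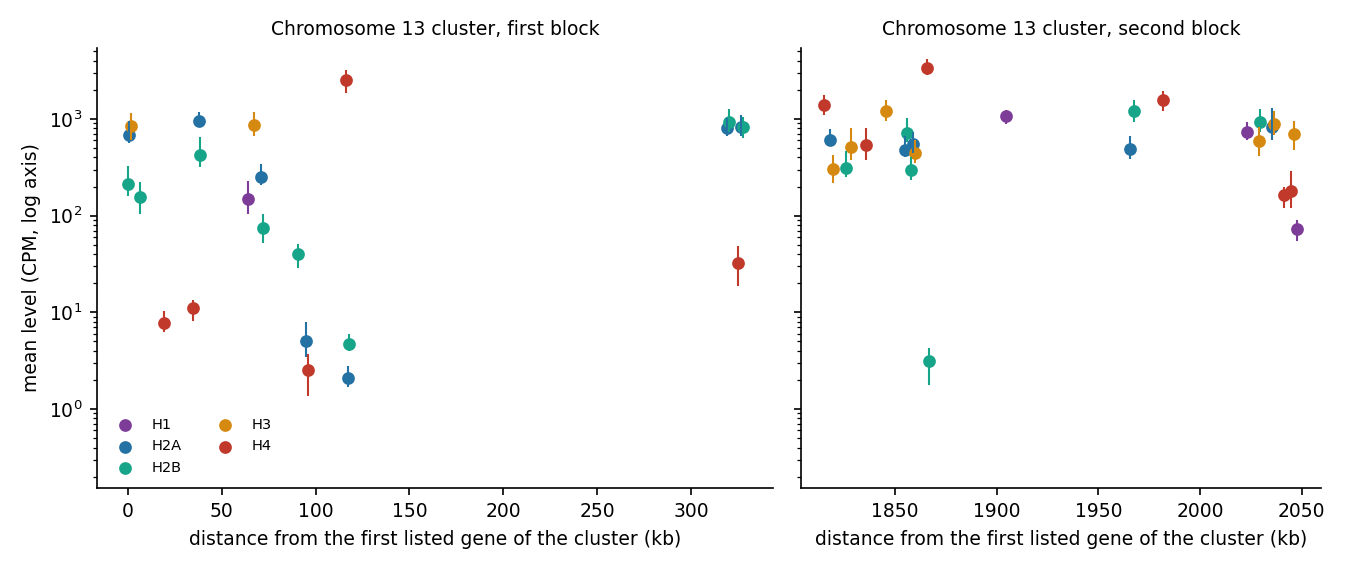
Each point is the mean level (CPM, log axis) of 1 replication-dependent gene of the chromosome 13 cluster, against its distance in kb from the first listed gene, with a line from its lowest to its highest library and colours for the families. Points are placed by the lower coordinate of each gene. Some genes close on this axis differed far more in level than the libraries did for either of them, as for H4c4 at 3385 CPM and H2bc6 at 3.16 CPM. The annotated start of H2bc6 lies 35200 bases from its start codon, so the annotated starts of these genes are not neighbours.

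The replacement genes gave no common direction. Of 10 genes, 1 was higher in both MAdCAM1 libraries (19.7% of all genes were), 3 were lower in both (18.7%) and 6 overlapped, counts near the background for so few genes. The higher gene was H3f3c, which has no annotated coding sequence in GENCODE M39. The median log2 fold change of the 10 genes was −0.09 (range −1.48 to 0.52, the upper end from H3f3c). The summed level was 5083, 5411, 5535 and 4618 CPM, with means of 5247 ± 232 and 5076 ± 648 CPM (SD, n = 2 each) and a ratio of 0.968. None passed an adjusted p of 0.05, and 1 was lower at an unadjusted p under 0.05 (1.82% of all genes).

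H3.3, the replication-independent H3, is encoded by H3f3a and H3f3b. H3f3b (chr11:115912738-115918788, minus strand) was at 1500, 1647, 1417 and 1365 CPM, lower in both MAdCAM1 libraries by a log2 fold change of −0.18 ± 0.15 (SE; adjusted p = 0.857 by edgeR's quasi-likelihood test). H3f3a was at 516, 670, 687 and 451 CPM, with overlapping groups and a log2 fold change of −0.06. H3f3c, placed in the class by its symbol and without an annotated coding sequence, had 38, 38, 52 and 44 tags. These equal 2.16, 2.35, 3.64 and 2.85 CPM, with a log2 fold change of 0.52. H3f3a was highest in MAdCAM1 1, but there barely above IgG 2, and H3f3b was highest in IgG 2.

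H2A.Z marks gene starts. H2az1 (chr3:137570072-137572690, plus strand) was at 1373, 1437, 1561 and 1271 CPM, with a log2 fold change of 0.01 that turned negative with upper quartile or library size scaling. H2az2 was at 238, 291, 264 and 226 CPM, with a log2 fold change of −0.11. The groups of both genes overlapped. H2ax (chr9:44245991-44247374, plus strand) was at 717, 582, 830 and 671 CPM, with a log2 fold change of 0.21 ± 0.20 (SE; adjusted p = 0.874 by edgeR's quasi-likelihood test) and overlapping groups.

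MacroH2A proteins carry a large extra domain and are found in silenced chromatin. Macroh2a1 was at 292, 273, 238 and 226 CPM, with a log2 fold change of −0.29 ± 0.14 (SE; adjusted p = 0.760 by edgeR's quasi-likelihood test), and both MAdCAM1 libraries lay below both IgG libraries. Macroh2a2 (chr10:61574420-61620380, minus strand) had 157, 321, 78 and 75 tags, or 8.94, 19.9, 5.46 and 4.86 CPM, with a log2 fold change of −1.48 ± 0.47 (SE; edgeR quasi-likelihood unadjusted p = 0.0308, adjusted p = 0.691). Its IgG libraries differed by more than 2-fold from each other, and the log2 fold change was −0.80 without IgG 2 and −1.96 without IgG 1. Of the linker genes outside replication, H1f0, known from differentiated cells, was at 377, 409, 466 and 363 CPM, with a log2 fold change of 0.08 that turned negative with library size scaling. H1f10 was at 57.9, 79.2, 62.7 and 37.1 CPM, with a log2 fold change of −0.46 and overlapping groups.

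Ratios within a library do not depend on scaling. Replication-dependent over replacement tags came to 5.51 in IgG 1, 5.85 in IgG 2, 8.32 in MAdCAM1 1 and 7.36 in MAdCAM1 2. Both MAdCAM1 libraries stood above both IgG libraries, and MAdCAM1 2 was nearer to MAdCAM1 1 than to IgG 2. The means were 5.68 ± 0.247 and 7.84 ± 0.682 (SD, n = 2 each), a log2 difference of 0.46, and leaving out 1 library at a time gave 0.37 to 0.55. In MAdCAM1 2 the ratio was higher with a replication-dependent sum close to IgG 2 and the lowest replacement sum of the 4 libraries.

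The same ratio within families differed in size. Replication-dependent H3 over the H3f3 genes was 2.55, 2.71, 4.41 and 3.60, a 1.52-fold difference of means with no overlap. Replication-dependent H2A over H2A.Z was 3.73, 3.3997, 5.22 and 4.38 (1.34-fold, no overlap). Against macroH2A it was 19.96, 20.05, 39.2 and 28.4 (1.67-fold, no overlap). Against H2ax, the replacement gene that carries the stem-loop, it was 8.38, 10.1, 11.5 and 9.77, with overlapping groups and a 1.15-fold difference. Replication-dependent H1 over H1f0 was 4.91, 4.04, 5.33 and 5.81 (1.25-fold, no overlap).

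SLBP binds the stem-loop and is needed for processing, export and translation of these messages. Slbp, at chr5:33792296-33809969 on the minus strand, was at 110, 122, 138 and 105 CPM, with overlapping groups and a log2 fold change of 0.07 ± 0.19 (SE; adjusted p = 0.964 by edgeR's quasi-likelihood test) that turned negative with library size scaling. Replication-dependent tags per Slbp tag were 254, 259, 333 and 323, a 1.28-fold difference with no overlap. Slbp was highest in MAdCAM1 1, as most replication-dependent genes were, but over a narrower range.

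Lists of genes that act on histone supply had medians near 0. Of 14 genes for histone gene transcription, 2 were higher in both MAdCAM1 libraries (19.7% of all genes) and 2 lower (18.7%), close to the background, with a median log2 fold change of −0.06. Nfyc, an NF-Y subunit, was at 30.7, 31.4, 38.4 and 37.0 CPM, E2f4 at 102, 102, 82.6 and 90.9 CPM, and Casp8ap2, which encodes the histone locus body protein FLASH, at 14.5, 14.0, 17.3 and 16.8 CPM. Of 23 measured genes for processing and decay of histone messages, 1 was higher (19.7% of all genes) and 7 were lower (18.7%), with a median of −0.08. The cap-binding gene Ncbp2 was at 35.0, 42.4, 29.1 and 30.4 CPM, with a log2 fold change of −0.38. None of these genes passed an adjusted p of 0.05.

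The histone chaperones were likewise mixed. Of 16 replication-coupled chaperone genes, 1 was higher (19.7% of all genes) and 2 were lower (18.7%) in both MAdCAM1 libraries, with a median of −0.06. Rbbp7, a subunit of the CAF-1 assembly factor and of other complexes, was at 457, 530, 403 and 385 CPM. Of 16 genes of variant deposition, 1 was higher and 5 were lower against the same background, with a median of −0.11. Cenpa, the centromeric H3 variant, was the higher one, at 51.5, 45.8, 74.1 and 58.8 CPM with a log2 fold change of 0.45.

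S-phase genes overlapped between the groups in all cases but 1. The list of 29 S-phase genes included Slbp. Of the 29, 1 was higher in both MAdCAM1 libraries (19.7% of all genes) and 0 lower (18.7%), with a median of 0.07. Their summed level was 1149, 1152, 1372 and 1082 CPM. The higher gene was Ccna2 (cyclin A2), at 56.9, 53.5, 78.1 and 75.6 CPM, with a log2 fold change of 0.48 (edgeR quasi-likelihood unadjusted p = 0.0182, adjusted p = 0.691). With Slbp left out of the list, replication-dependent tags per S-phase tag were 26.9, 30.8, 37.3 and 34.8, a 1.25-fold difference with no overlap. Of 19 measured G2 and M phase genes, 10 were higher and 0 lower against the same background, with a median of 0.19 and summed levels of 1131, 975, 1355 and 1134 CPM. Tags per G2 and M phase tag were 24.7, 32.5, 34.0 and 30.0, with overlapping groups. The S-phase list, like the histone class, was highest in MAdCAM1 1, and the part of cell-cycle state in the histone difference was not tested.

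Markers of the cell types of the tumour differed between the libraries as well. Epithelial markers were higher in both MAdCAM1 libraries for 9 of 10 genes (19.7% of all genes), with summed levels of 7225, 6271, 11640 and 10180 CPM. Myeloid markers (8 of 10 measured) summed to 442, 1014, 335 and 1285 CPM, fibroblast markers (10 of 10) to 711, 1480, 639 and 1983 CPM, and smooth muscle markers (6 of 10) to 1690, 107, 126 and 1905 CPM. T cell markers (6 of 10) summed to 38.6, 57.7, 23.5 and 52.4 CPM, B and plasma cell markers (6 of 10) to 263, 304, 264 and 873 CPM, and endothelial markers (8 of 10) to 55.1, 68.0, 24.6 and 105 CPM. MAdCAM1 1, where the replication-dependent genes peaked, was the lowest library for the myeloid, fibroblast, T cell and endothelial lists and the highest for the epithelial list. The part of these shifts in the histone values was not tested.

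Several histone genes have close copies from which their reads may not be told apart. A 75-base window that starts 40 bases before the start codon, the length of a read, was compared with the rest of the genome and with the other members. The window was placed by the start codon and not by where reads begin. For H3c14 and H3c15 the annotated starts lie 201 and 186 bases from the start codon, outside the window. The window of 8 replication-dependent genes (H2ac18 and H2ac19, H2ac23 and H2ac24, H2bc23 and H2bc24, H3c14 and H3c15) had an exact second copy, and 7 of the 8 were under 10 CPM, with a median of 4.96 CPM. The 49 genes whose nearest other member differed at 19 to 36 of the 75 bases had a median of 588.9 CPM, and 2 of them were under 10 CPM. These were H2bc21 and H2bc6, and the annotated start of H2bc6 lies 35200 bases from its start codon. H4c17 differed from H4c18 at 1 base of the window and was read at 2.55 CPM against 2549 CPM, and H4c11 differed from H4c12 at 1 base. How reads with more than 1 best match were treated is not given in the sources used here, so the levels of these genes, and the fold change of H4c17, are uncertain.

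**Figure D5:**
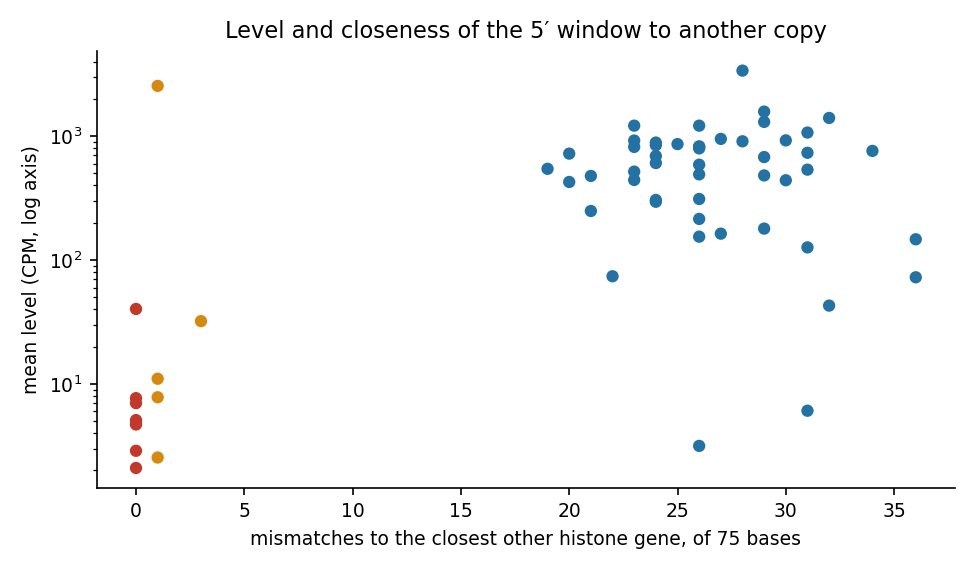
Each point is the mean level (CPM, log scale) of a replication-dependent gene. The other axis gives mismatches to the closest other histone gene in the 75-base window around the start codon. Colours mark 0, 1 to 3 or more mismatches. Genes with 0 mismatches lay at 2.10 to 40.3 CPM, and those with 19 or more mostly above 100 CPM.

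The table also repeats values. In all, 19 members had the same 4 counts as another gene, 16 of them replication-dependent, and in none was the partner another replication-dependent gene. The pseudogene H2ac5-ps carried the values of H3c3 (414, 523, 821 and 598 CPM), so these tags cannot be assigned to either. The other replication-dependent genes with repeated values were H2ac18, H2ac20, H2bc3, H2bc4, H2bc7, H2bc8, H2bc11, H2bc12, H2bc13, H2bc14, H2bc15, H2bc18, H2bc22, H2bc23 and H2bc24. Each shared its values with a gene outside the members described here. Their tags, like those of H1f10, cannot be assigned to either gene. Their levels and ratios to partners given above may therefore not be theirs alone. Of the other members counted as pseudogenes by symbol, H2bu1-ps was at 30.6, 35.8, 61.1 and 27.8 CPM with overlapping groups. H3f3a-ps1 had 11, 10, 6 and 3 tags.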

How the data were processed

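Per the labels' protocols, total RNA of integrity above 7.0 gave random-primed, cap-selected cDNA, sequenced from one end (75 nt, NextSeq 500). For alignment to GRCm39 the authors used BWA 0.7.17, then HISAT2 2.0.5. RECLU clustering dropped clusters under 0.1 CPM, over 200 bp or poorly reproducible between replicates. How clusters were joined into genes is not given in the sources used here. The deposited values are unnormalized tag counts, 1 row per gene. Histone members, classes and gene lists were chosen with earlier results of these data known.

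Counts were filtered (filterByExpr, 14331 of 14979 genes), scaled by TMM and fitted with edgeR 4.0.16 under R 4.3.3 (robust quasi-likelihood F test, MAdCAM1 minus IgG, no covariate, Benjamini-Hochberg over all tested genes, threshold 0.05), and the fit was tested on simulated data. Standard errors were derived from the fold change and its F statistic. Alternatives were 3 other scalings, 2 other filters, leaving out each library, a replicate block, edgeR's exact test, DESeq2 1.42.0, limma-voom (limma 3.58.1), changed class membership and, added after seeing the data, counting genes with identical values once. Named genes were the 3 most abundant members of each replication-dependent family, all replacement members and Slbp. Up to 3 members per class and direction, and 3 per list, of smallest p were added. Members in the paragraphs on pairs, close copies and identical values were picked for those features. GENCODE M39 and the GRCm39 genome gave positions and sequences for all 76 members.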

Additional observations from a re-analysis of the deposited data

How the results depend on the processing

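No histone gene passed an adjusted p of 0.05 in any fit over all genes, under each scaling, filter, left-out library, replicate block and tool and with identical genes counted once. The changes of class membership gave only sums and ratios. Over all genes, DESeq2 called 242 and edgeR's exact test 161, against 0 by the quasi-likelihood test. Leaving out 1 library at a time, the replication-dependent median ran from 0.16 to 0.65 and its summed log2 fold change from 0.19 to 0.63, both lowest without MAdCAM1 1, and the replacement median ran from −0.25 to 0.075. In these fits a lone library is assumed to vary like the other group. Members higher at an unadjusted p under 0.05 numbered 3 of 76 by the quasi-likelihood test, where 5.09% of all genes were higher. They numbered 9 by DESeq2 and 1 by edgeR's exact test. The share of all genes at this threshold was not taken for those 2 tools, so these counts cannot be set against a background. Of 50 named genes, 7 changed sign in some setting. With library size scaling H2az1 was at −0.087, H1f0 at −0.020 and Slbp at −0.032, and with upper quartile scaling H2az1 was at −0.0044. Leaving out 1 library, H2az1 ran from −0.15 to 0.15, H1f0 from −0.11 to 0.25, Slbp from −0.15 to 0.25, H2az2 from −0.27 to 0.034, H3f3a from −0.40 to 0.21, H2bc21 from −0.57 to 0.50 and H2bu1-ps from −0.26 to 0.88. The cause was not tested.

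The replicate numbers belong to different mice. The deviations of same-numbered libraries had a correlation of −0.14 across 14331 genes, which are not independent replicates. With the number as a replicate block, 0 genes and 0 histone genes were called, the replication-dependent median was 0.43 and the replacement median −0.094, and 0 members were higher at an unadjusted p under 0.05. Every replication-dependent gene had at least 24 tags in every library, and depth limits the least abundant members most.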
